A study of Mus musculus with 6 samples.

Results

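The genes described here encode the receptors and bridging molecules by which liver phagocytes take up opsonised material and dying cells: the IgG Fc receptors Fcgr1, Fcgr2b, Fcgr3 and Fcgr4 with their shared signalling chain Fcer1g, the complement C1q chains C1qa, C1qb and C1qc, and the efferocytosis receptor kinases Mertk and Axl. They were chosen by symbol through their Ensembl identifiers, and all 10 were found among the 41388 identifiers of the count table and passed the filter on low counts. Messenger RNA was sequenced in bulk from liver tissue of BALB/c mice in which carbon tetrachloride (CCl4), a liver toxin, had been used for 5 weeks to produce fibrosis. The AL/NP group (3 libraries) received nanoparticles loaded with the bisphosphonate alendronate, at 4 mg/kg alendronate, in 2 injections per week over the last 2 weeks. The fibrotic control group (3 libraries) also received CCl4 and is labelled untreated. The injection protocol is attached to every sample alike, so the groups rest on the titles and the treatment labels, which do not say whether controls received any injection. No library from healthy liver or from nanoparticles without drug was analysed here, and age and sex are not given in the sources used here. The labels number the replicates without saying that each is a separate animal, so the p-values measure the spread between these samples, which may in part be technical.

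Activating Fc-gamma receptors (Fcgr1, Fcgr3 and Fcgr4 in the mouse) bind IgG on a target and signal through the tyrosine-based motif of the gamma chain that Fcer1g encodes, which recruits the kinase Syk and starts phagocytosis and the oxidative burst. Fcgr2b is the inhibitory member of the family, and in mouse liver it is known for its abundance on sinusoidal endothelium as well as on macrophages. C1q, the recognition unit of the classical complement pathway, is assembled from A, B and C chains made mainly by macrophages, and it coats immune complexes and apoptotic cells. Mertk and Axl, with Tyro3 the TAM receptor kinases, bind phosphatidylserine on dying cells through the bridging ligands Gas6 and protein S.

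The 3 C1q genes lie next to each other on mouse chromosome 4, and Fcgr2b, Fcgr4, Fcgr3 and Fcer1g lie on chromosome 1. On GRCm38, with GENCODE M21 annotation, C1qb spans 136880129 to 136886187, C1qc 136889804 to 136893065 and C1qa 136895917 to 136898803, all on the minus strand. Upstream sequences are shown for the 5 genes whose printed stretch holds the 6-base core of sites bound by PU.1 (encoded by Spi1), the myeloid transcription factor, which is in capitals (GAGGAA, or TTCCTC where it lies on the other strand). They come from RefSeq on build GRCm38.p6, are at most 120 bases long, lie before the RefSeq start and leave out bases within a GENCODE exon of the gene, which for C1qc puts the stretch from 250 to 152 bases before the start.
C1qb, chr4:136886201-136886320, minus strand: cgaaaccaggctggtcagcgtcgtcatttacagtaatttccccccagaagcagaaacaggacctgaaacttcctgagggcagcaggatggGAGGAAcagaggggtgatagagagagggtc
C1qc, chr4:136893066-136893164, minus strand: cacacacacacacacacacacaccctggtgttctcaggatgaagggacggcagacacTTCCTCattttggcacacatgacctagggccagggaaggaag
Fcgr1, chr3:96293970-96294089, minus strand: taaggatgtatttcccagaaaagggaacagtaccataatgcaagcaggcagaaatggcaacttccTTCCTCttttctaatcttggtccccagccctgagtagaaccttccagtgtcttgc
Fcgr3, chr1:171059404-171059523, minus strand: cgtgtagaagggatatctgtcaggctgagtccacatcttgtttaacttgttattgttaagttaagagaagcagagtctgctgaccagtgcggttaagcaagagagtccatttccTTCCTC
Fcgr4, chr1:171018800-171018919, plus strand: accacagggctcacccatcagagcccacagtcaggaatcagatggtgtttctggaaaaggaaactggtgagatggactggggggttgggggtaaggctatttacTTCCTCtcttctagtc
Of the 10 genes, 9 matched the RefSeq table. GAGGAA, searched on both strands in the 250 bases before the start, was present for C1qb, C1qc, Fcgr1, Fcgr3, Fcgr4 and Axl (at -130, before the stretch written out) and absent for Fcgr2b, Fcer1g and Mertk, and 23.3% of all 32851 promoters in the table held it. The STAT-type motif TTCNNNGAA was present for Fcgr1 only, against 7.02% of all promoters. A match describes these letters and is not evidence of binding.

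Coding sequences of Fcgr2b and Fcgr3 share long identical stretches, which bears on how far their counts can be told apart. The longest within single exons was 113 bases, given here from GENCODE M21 transcripts on GRCm38.
Fcgr2b, chr1:170966560-170966672, minus strand: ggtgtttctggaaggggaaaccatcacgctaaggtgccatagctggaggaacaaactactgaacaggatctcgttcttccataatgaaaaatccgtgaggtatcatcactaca
Fcgr3, chr1:171054053-171054165, minus strand: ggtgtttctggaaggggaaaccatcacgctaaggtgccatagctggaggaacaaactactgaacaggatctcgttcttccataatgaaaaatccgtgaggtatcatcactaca
Of all 50-base windows of Fcgr3 transcripts, the length of 1 sequenced read end, 9.58% also occurred in Fcgr2b. Of those of Fcgr2b, 6.95% occurred in another gene, 166 of 5685 windows in Fcgr3. The treatment of such reads is not given in the sources used here, so the split between these 2 genes is uncertain to that extent. No window of the other 8 members occurred in another annotated gene.

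Library totals ranged from 30554483 to 39838428 counts. Control replicate 3 had the lowest TMM scaling factor, 0.809 against 0.937 to 1.13 in the other libraries, and the highest share of mitochondrially encoded counts, 26.7% against 12.0% to 19.8%. Levels below are TMM-scaled CPM (each count relative to the scaled library total), a positive log2 fold change means a higher level with AL/NP, and tests are edgeR's quasi-likelihood test with Benjamini-Hochberg adjustment over all 15939 genes tested. At an adjusted p under 0.05 this test called 0 of the 10 members, where it called 0.0816% of all genes, 0.0627% higher and 0.0188% lower. At an adjusted p under 0.1 it held 1 member, Fcgr4, against 0.891% of all genes. At an unadjusted p under 0.05 there were 6 of 10 members (19.6% of all genes), with 6 higher and 0 lower with AL/NP, against 9.37% and 10.3% of all genes in those directions. DESeq2 called 2 of 10 members (5.07% of all genes), Fcgr3 and Fcgr4, both higher, where it called 2.59% of all genes higher. The fold change was positive for 9 of 10 members, with a median of 0.96, against 50.0% of all tested genes and a median of -0.00025.

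The activating receptor Fcgr4 (chr1:171018920-171029761), which binds IgG2 subclasses on monocytes, macrophages and neutrophils, had the largest difference of the family. It measured 3.82, 6.03 and 7.37 CPM in AL/NP replicates 1 to 3, against 1.52, 1.16 and 2.42 CPM in control replicates 1 to 3. Every AL/NP library lay above every control. The log2 fold change was 1.76 (SE 0.35), a 3.38-fold higher level, with an adjusted p of 0.0998 from edgeR and 0.00014 from DESeq2. Its p-value ranked 126th among all genes tested.

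Fcgr3 (chr1:171051174-171064935), the low-affinity activating receptor of macrophages, neutrophils and NK cells, likewise did not overlap between the groups. Its level was 6.33, 8.31 and 15.8 CPM in AL/NP replicates 1 to 3, against 4.22, 3.37 and 5.31 CPM in control replicates 1 to 3. AL/NP replicate 3 stood well above the other libraries. The log2 fold change was 1.24 (SE 0.34), with an adjusted p of 0.144 from edgeR and 0.0143 from DESeq2. Fcgr3 and Fcgr4 were the 2 of 10 members whose groups did not overlap with AL/NP higher, where 14.5% of all genes tested did so. No member lay below all controls in every AL/NP library, against 15% of all genes, and 29.5% of genes did not overlap in one direction or the other.

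Fcgr1 (chr3:96282909-96293969), the high-affinity IgG receptor of monocytes and macrophages, measured 3.65, 6.19 and 8.91 CPM in AL/NP livers and 2.73, 1.80 and 5.50 CPM in fibrotic control livers. The groups overlapped, because control replicate 3 lay above AL/NP replicate 1. The log2 fold change was 0.91 (SE 0.44, edgeR adjusted p = 0.287). Fcer1g (chr1:171229572-171234365), whose product the activating receptors need for surface expression and signalling, measured 16.7, 25.0 and 33.5 CPM in AL/NP livers and 11.1, 8.31 and 21.8 CPM in fibrotic control livers. It overlapped through the same pair of libraries, with a log2 fold change of 0.87 (SE 0.37, edgeR adjusted p = 0.249).

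The inhibitory receptor Fcgr2b (chr1:170958617-170976547) showed no such difference. It measured 26.3, 31.5 and 36.4 CPM in AL/NP replicates 1 to 3, against 29.8, 42.2 and 29.9 CPM in control replicates 1 to 3. The highest library was a control, and the groups overlapped throughout. The log2 fold change was -0.11 (SE 0.19, edgeR adjusted p = 0.763), with a 95% interval from -0.55 to 0.32, which holds neither the fold change of Fcgr3 nor that of Fcgr4. Its sign turned in 2 alternatives, to 0.061 without control replicate 2 and to 0.026 when counts were scaled by library total alone, a scaling that put the all-gene median at 0.133. Markers of sinusoidal endothelium, which also carries this receptor, showed summed levels of 156 to 205 CPM in AL/NP livers and 161 to 202 CPM in fibrotic control livers, with none at 0. Of the 9 measured, 0 were higher and 1 lower at an unadjusted p under 0.05, and edgeR called 0. Their part in the level of Fcgr2b was not tested.

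**Figure D1:**
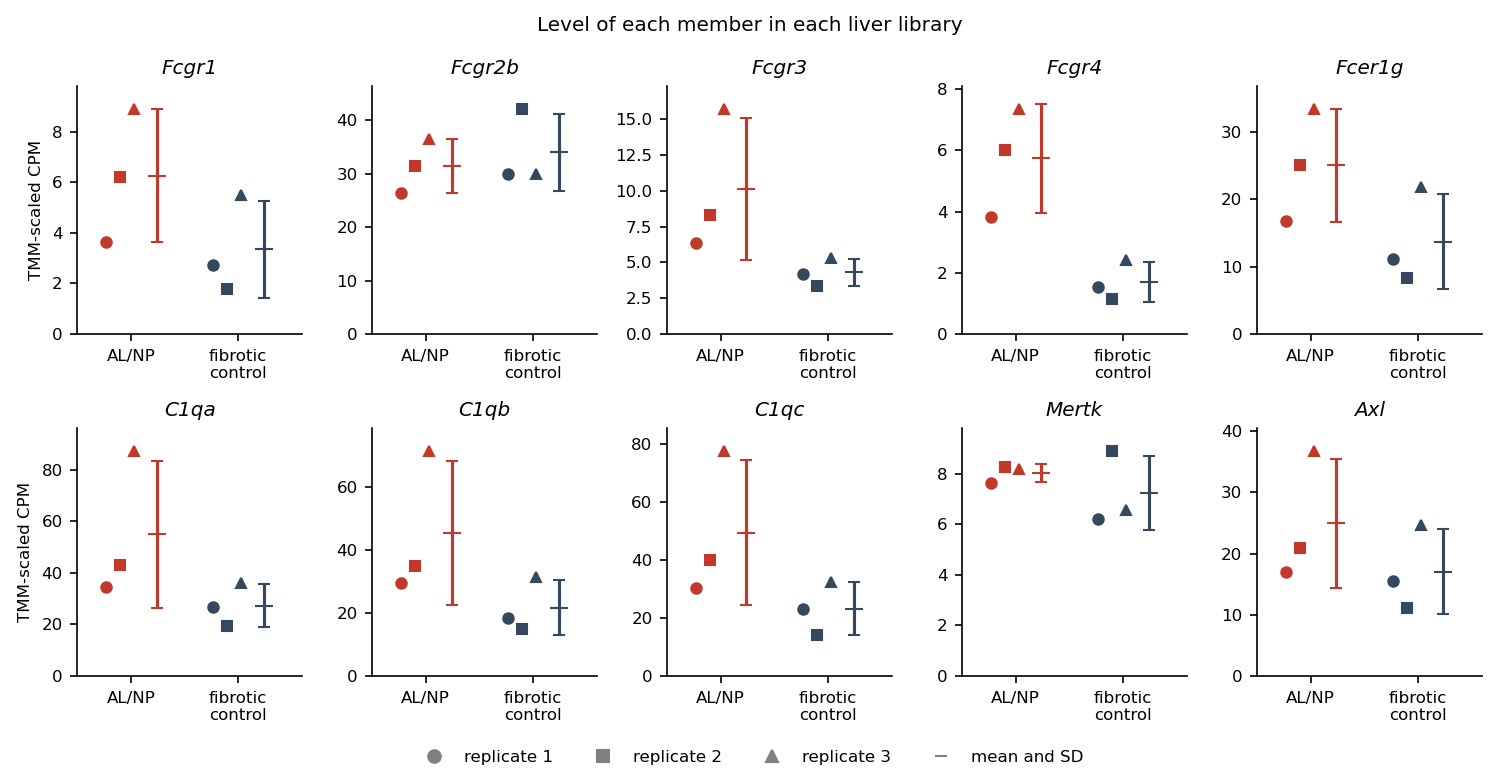
TMM-scaled CPM of each of the 10 members, 1 panel per gene with its own axis from 0, with AL/NP libraries in red and fibrotic control libraries in dark blue. Circles, squares and triangles are replicates 1, 2 and 3 (numbers do not pair the groups), bars are the mean and SD (n = 3). AL/NP replicate 3 is the highest of all 6 libraries in 8 of 10 genes, and Fcgr2b and Mertk show groups at a similar level.

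Because activating receptors and Fcgr2b bind the same ligand, their ratio was described per library on a length-corrected scale (CPM per kilobase of exon). In bulk liver the RNA of the activating receptors and of Fcgr2b may come from different cells. The ratio is therefore not a balance within phagocytes. The length was the union of exons, 5790 bases for Fcgr2b against 2589 for Fcgr1, 1736 for Fcgr3 and 1256 for Fcgr4. The level of the ratio, above or below 1, and the percentages below depend on these lengths. In CPM without this correction, each activating receptor lay below Fcgr2b in every library. Fcgr1, Fcgr3 and Fcgr4 together stood at 1.78, 2.2 and 2.92 times the level of Fcgr2b in AL/NP replicates 1 to 3, against 0.912, 0.488 and 1.38 times in control replicates 1 to 3. The ratio did not overlap between the groups, at 2.30 ± 0.577 in AL/NP livers and 0.927 ± 0.446 in fibrotic control livers (SD, n = 3 each). Fcgr4 made up 24.1%, 27.6% and 23.8% of the RNA of the 4 receptors in AL/NP livers and 12.3%, 8.52% and 15.7% in fibrotic control livers. Fcgr2b made up 35.9%, 31.2% and 25.5% in AL/NP livers and 52.3%, 67.2% and 42% in fibrotic control livers. Relative to the summed activating receptors, Fcer1g stood at 2.28 ± 0.170 in AL/NP livers and 2.96 ± 0.469 in fibrotic control livers (SD, n = 3 each), without overlap. These ratios were formed from members already described, and are given without a test.

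**Figure D2:**
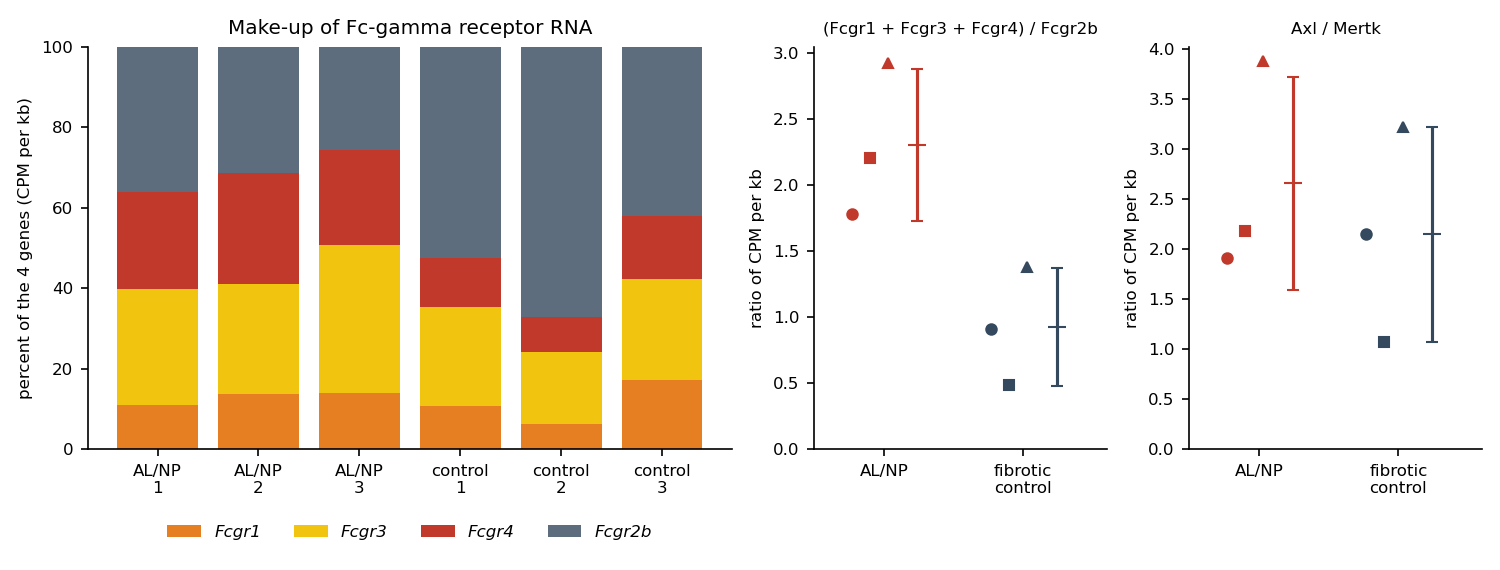
Left, percent of the summed Fc-gamma receptor RNA (CPM per kilobase of exon) held by each of 4 genes in each library. Middle and right, the ratio of summed activating receptors to Fcgr2b and of Axl to Mertk, with AL/NP in red and fibrotic control in dark blue, circles, squares and triangles for replicates 1, 2 and 3, and the mean and SD (n = 3). The activating to inhibitory ratio is 1.78 or more in AL/NP livers and 1.38 or less in fibrotic control livers. The Axl to Mertk ratio overlaps. The levels of the ratios and the percentages depend on the exon lengths used, and the RNA of the genes compared may come from different cells.

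The C1q chains were the most abundant members per length together with Fcer1g. C1qa averaged 52.9 CPM per kilobase in AL/NP livers and 26.2 in fibrotic control livers, C1qb 41.6 in AL/NP and 19.8 in control livers, C1qc 25.6 in AL/NP and 12.0 in control livers, and Fcer1g 28.7 in AL/NP and 15.7 in control livers, while the other members lay between 1.29 and 5.86 in both groups. C1qa measured 34.5, 43.0 and 87.4 CPM in AL/NP replicates 1 to 3, against 26.7, 19.2 and 35.9 CPM in control replicates 1 to 3. C1qb measured 29.6, 34.7 and 71.5 CPM in AL/NP livers and 18.3, 15 and 31.5 CPM in fibrotic control livers. C1qc measured 30.2, 40.2 and 77.7 CPM in AL/NP livers and 23.1, 14.1 and 32.4 CPM in fibrotic control livers. In each chain AL/NP replicate 3 stood far above the other 5 libraries, and the groups overlapped because control replicate 3 lay above AL/NP replicate 1. The log2 fold changes were close to each other, at 1.01 for C1qa (SE 0.36), 1.07 for C1qb (SE 0.38) and 1.09 for C1qc (SE 0.40), with edgeR adjusted p-values of 0.200, 0.201 and 0.203. DESeq2 gave adjusted p-values of 0.0599, 0.0545 and 0.0548. Without AL/NP replicate 3 the log2 fold changes were 0.51, 0.58 and 0.60.

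The make-up of C1q RNA was much the same in all libraries. C1qa held 43.9% ± 0.321 of the summed chains in AL/NP livers and 45.6% ± 2.27 in fibrotic control livers (SD, n = 3 each, per length). C1qb held 34.8% ± 0.953 in AL/NP livers and 33.9% ± 2.69 in fibrotic control livers, and C1qc 21.3% ± 0.756 in AL/NP livers and 20.4% ± 1.82 in fibrotic control livers. All 3 shares overlapped between the groups. The genes most like C1q over the 6 libraries, by Pearson correlation of log2 CPM with the mean of the chains, were Adgre1 (r = 0.998), the gene of the macrophage antigen F4/80, Ctss (0.997), a lysosomal protease, C3ar1 (0.997), the receptor of the complement fragment C3a, the sterol exporter gene Abcg1 (0.996) and Lpcat2 (0.994). Among members, Fcgr1, Fcgr3, Fcgr4, Fcer1g and Axl correlated with C1qc at 0.917 to 0.974, whereas Mertk stood at 0.043 and Fcgr2b at -0.17. These coefficients rest on 6 libraries that include both groups, and are descriptions.

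The TAM receptors differed from each other in pattern. Mertk (chr2:128698956-128802894) measured 7.65, 8.28 and 8.18 CPM in AL/NP replicates 1 to 3, against 6.20, 8.92 and 6.59 CPM in control replicates 1 to 3. The log2 fold change was 0.15 (SE 0.19, edgeR adjusted p = 0.676), with a 95% interval from -0.28 to 0.59. Axl (chr7:25757273-25788705), which is induced in inflamed macrophages and is also expressed by stellate cells, measured 17.0, 20.9 and 36.8 CPM in AL/NP livers and 15.5, 11.1 and 24.6 CPM in fibrotic control livers. Replicate 3 was the highest in both groups. The log2 fold change of Axl was 0.55 (SE 0.35, edgeR adjusted p = 0.399), with a 95% interval from -0.26 to 1.35, and it was 0.15 without AL/NP replicate 3. Stellate cell and fibroblast markers ranged from 316 to 643 CPM summed in AL/NP livers and from 329 to 723 CPM in fibrotic control livers, with 1 of 11 higher at an unadjusted p under 0.05 and none at 0. Their part in the level of Axl was not tested.

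**Figure D3:**
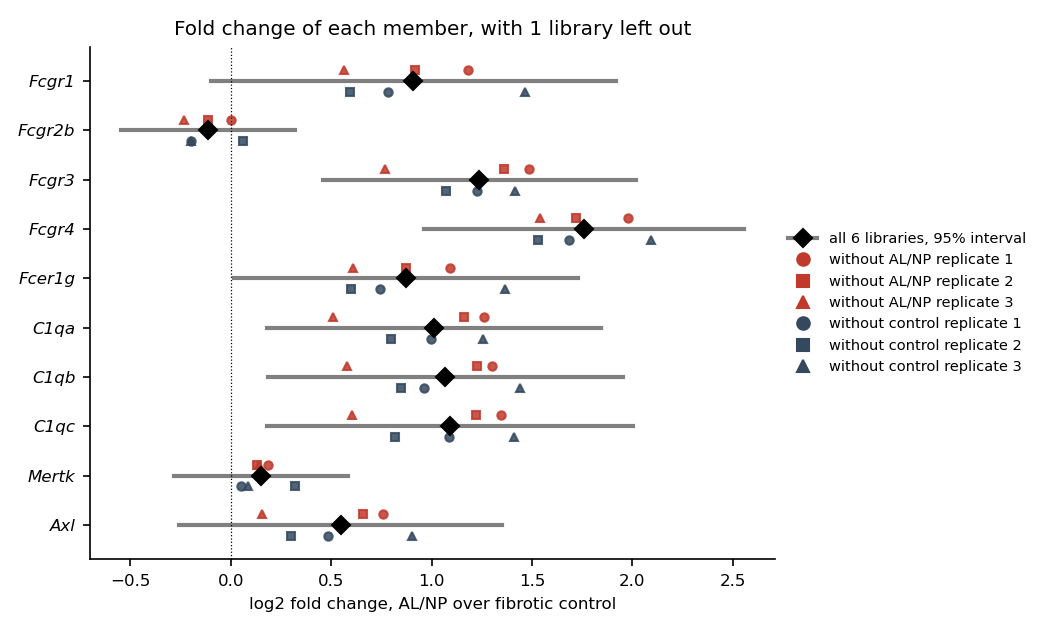
Log2 fold change of each member, AL/NP over fibrotic control, from edgeR with all 6 libraries (black diamond) and its 95% interval (grey line). Smaller symbols give the fold change with 1 library left out, red for an AL/NP and dark blue for a control library, with circles, squares and triangles for replicates 1, 2 and 3. Leaving out AL/NP replicate 3 gives the lowest values for most genes, and Fcgr4 stays at 1.53 or above.

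How far these levels followed single libraries was described by leaving each out. Over the 10 members the median log2 fold change came to 0.57 when AL/NP replicate 3 was dropped and to 1.39 when control replicate 3 was. The number of members with an unadjusted edgeR p under 0.05 was 6 of 10 with all libraries and 5 to 8 when AL/NP replicate 1, AL/NP replicate 2 or control replicate 3 was dropped, where 13.7% to 18.6% of all genes had such a p. It was 2 of 10 when AL/NP replicate 3, control replicate 1 or control replicate 2 was dropped, close to the 17.7%, 17.8% and 15.2% of all genes in those fits. In AL/NP livers, replicate 1 was the lowest library for all 10 members and replicate 3 the highest for 9.

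The summed level of 12 general macrophage markers was 671 to 891 CPM in AL/NP livers and 468 to 579 CPM in fibrotic control livers, with none at 0. Of the 12, edgeR called 0, while 9 were higher and 1 lower at an unadjusted p under 0.05, and their median log2 fold change was 1.1. DESeq2 called 4 higher and 1 lower, where it called 5.07% of all genes. The groups did not overlap for 5 with AL/NP higher and 1 lower, against 14.5% and 15% of all genes. Adgre1 measured 3.09, 4.16 and 8.01 CPM in AL/NP livers and 2.21, 1.66 and 3.23 CPM in fibrotic control livers, in the same library order as C1q. Spi1, the gene of PU.1, averaged 9.10 CPM in AL/NP livers and 4.28 CPM in fibrotic control livers (log2 fold change 1.09, SE 0.37, edgeR adjusted p = 0.184). In bulk tissue more cells of a type and more RNA per cell cannot be told apart.

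The members were also set against the mean log2 CPM of those 12 markers in the same library. The markers did not move alike, with log2 fold changes from -0.58 (Lgals3) to 1.61 (Lyz2). The offsets given here therefore depend on the markers chosen. Relative to the markers, the C1q chains, Fcer1g and Fcgr1 showed differences between the groups of 0.043 to 0.166 on the log2 scale, all overlapping. Fcgr3 was 0.25 higher relative to the markers, also with overlap. Fcgr4 stood at -2.71 ± 0.193 relative to the markers in AL/NP livers and -3.55 ± 0.146 in fibrotic control livers (SD, n = 3 each), without overlap. Fcgr2b stood at -0.23 ± 0.123 in AL/NP livers and 0.76 ± 0.622 in fibrotic control livers, also without overlap and in the opposite direction. Mertk stood at -2.18 ± 0.306 in AL/NP livers and -1.46 ± 0.595 in fibrotic control livers, with overlap. Axl stood at -0.63 ± 0.238 in AL/NP livers and -0.28 ± 0.203 in fibrotic control livers, also with overlap and in the opposite direction to its fold change. The log2 fold changes of Fcgr2b and Mertk themselves were -0.11 and 0.15. Their lower offsets with AL/NP therefore mostly follow the higher level of the markers, and are not a drop of these genes.

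**Figure D4:**
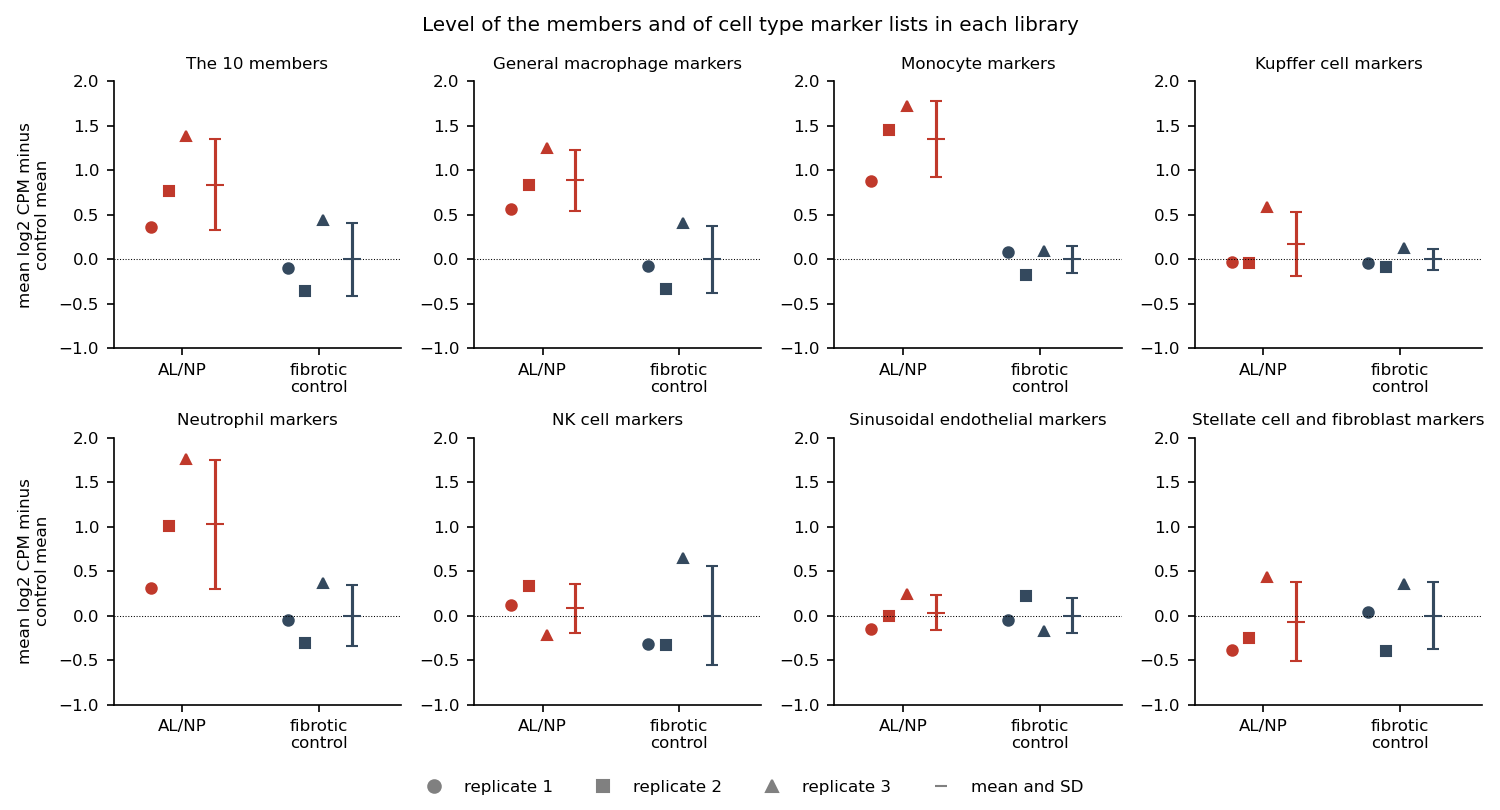
Mean log2 CPM of the 10 members and of 7 cell type marker lists in each library, minus the control mean of each gene. AL/NP is in red and fibrotic control in dark blue, circles, squares and triangles are replicates 1, 2 and 3, and bars are the mean and SD (n = 3). General macrophage and monocyte markers do not overlap between the groups. The 10 members and the Kupffer cell, endothelial and stellate cell markers do.

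Other cells that carry these receptors were followed with the same lists. The 8 monocyte markers summed to 32.7 to 57.9 CPM in AL/NP livers and 19.7 to 28.5 CPM in fibrotic control livers, all 8 with positive log2 fold changes and 6 at an unadjusted p under 0.05. DESeq2 called 5 of the 8 higher (2.59% of all genes), and 5 did not overlap with AL/NP higher (14.5% of all genes). Neutrophil markers, of cells that express Fcgr3 and Fcgr4, summed to 35.9 to 81.8 CPM in AL/NP livers and 19.6 to 35.6 CPM in fibrotic control livers. Of these, 4 of 7 tested were higher at an unadjusted p under 0.05. DESeq2 called 3 of those 7 higher, and 3 did not overlap with AL/NP higher. Their mean log2 CPM relative to the control mean overlapped, at 0.31 in AL/NP replicate 1 and 0.37 in control replicate 3. Markers of Kupffer cells, the resident macrophages, summed to 119 to 197 CPM in AL/NP livers and 129 to 151 CPM in fibrotic control livers. At an unadjusted p under 0.05, 3 of 9 were higher and 1 lower, and by sign alone 6 were higher and 3 lower. NK cell markers were at the edge of detection, with sums of 1.31 to 1.79 CPM in AL/NP livers and 1.02 to 2.02 CPM in fibrotic control livers, and 2 of 7 could be tested. B cell markers, of cells that carry Fcgr2b, summed to 5.25 to 7.24 CPM in AL/NP livers and 5.80 to 10.8 CPM in fibrotic control livers. At an unadjusted p under 0.05, 0 of 7 were higher and 1 lower, and by sign alone 1 was higher and 6 lower. Hepatocyte markers summed to 46237 to 53452 CPM in AL/NP livers and 56905 to 75896 CPM in fibrotic control livers. All 8 had negative log2 fold changes (median -0.49), with 0 higher and 2 lower at an unadjusted p under 0.05. None of these markers was at 0 in all libraries, and edgeR called 0 in each list. DESeq2 also called 1 Kupffer cell marker higher and 1 hepatocyte marker lower. The part of these markers in the levels of the members was not tested.

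Downstream of the receptors, 17 genes of Fc receptor signalling and the phagocyte oxidase were examined. All 17 had positive log2 fold changes, with a median of 0.82. EdgeR called 0, while 12 of 17 were higher at an unadjusted p under 0.05 and DESeq2 called 6 higher. Cyba, a subunit of the oxidase, measured 21, 17.8 and 25.9 CPM in AL/NP livers and 9.33, 6.79 and 12.7 CPM in fibrotic control livers (log2 fold change 1.17, SE 0.24, edgeR adjusted p = 0.103). Every AL/NP library lay above every control.

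Immunoglobulin receptors outside the family showed no common direction. Of 7 tested receptors, 1 was higher and 1 lower at an unadjusted p under 0.05, with a median log2 fold change of -0.11. Fcgrt, the neonatal Fc receptor that recycles IgG and albumin, measured 120, 93.6 and 97.1 CPM in AL/NP livers and 67.0, 68.2 and 48.2 CPM in fibrotic control livers (log2 fold change 0.76, SE 0.19, edgeR adjusted p = 0.126; DESeq2 adjusted p = 0.0163). Fcer2a, the low-affinity IgE receptor of B cells, averaged 0.372 CPM in AL/NP livers and 0.890 CPM in fibrotic control livers (log2 fold change -1.25, SE 0.38, edgeR adjusted p = 0.159). Of 8 immunoglobulin constant-region genes 5 could be tested. Of these, 4 had positive log2 fold changes, 2 were higher and 0 lower at an unadjusted p under 0.05, and the median was 0.60. Ighg1 measured 0.730, 0.605 and 2.99 CPM in AL/NP livers and 0.546, 0.221 and 0.311 CPM in fibrotic control livers, and Igha averaged 4.75 CPM in AL/NP livers and 2.82 CPM in fibrotic control livers. Their edgeR adjusted p-values were 0.186 and 0.209.

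Of 13 tested partners of C1q in the classical pathway and C1q-binding proteins, 3 were higher and 2 lower at an unadjusted p under 0.05, with a median log2 fold change of 0.034. C3, the central complement component, measured 6728, 5835 and 5540.0 CPM in AL/NP livers and 3944, 2653 and 2614 CPM in fibrotic control livers (log2 fold change 0.97, SE 0.23, edgeR adjusted p = 0.124; DESeq2 adjusted p = 0.00128). Serping1, the inhibitor of the C1 proteases, measured 414, 380.3 and 378 CPM in AL/NP livers and 284, 238 and 235 CPM in fibrotic control livers (log2 fold change 0.63, SE 0.16, edgeR adjusted p = 0.126). Neither gene overlapped between the groups.

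The TAM receptor list held 8 further genes, of which 3 (Gas6, Pros1 and Twf1) were higher and 0 lower at an unadjusted p under 0.05. Pros1, the gene of protein S, had a log2 fold change of 0.45 (SE 0.18, edgeR adjusted p = 0.224). Gas6, the ligand of Axl and Mertk, measured 84.6, 76.6 and 60.6 CPM in AL/NP livers and 56.5, 57.1 and 41.0 CPM in fibrotic control livers (log2 fold change 0.52, SE 0.19, edgeR adjusted p = 0.201). Twf1, an actin-binding protein and not a TAM receptor or ligand, had the smallest p-value of the list (log2 fold change 0.63, SE 0.17, edgeR adjusted p = 0.144). Among 13 tested phosphatidylserine bridging proteins and receptors, 4 were higher and 0 lower at an unadjusted p under 0.05. Itgb3, the integrin chain that with Itgav binds the bridging protein Mfge8, measured 4.10, 3.88 and 4.96 CPM in AL/NP livers and 1.58, 2.32 and 1.71 CPM in fibrotic control livers (log2 fold change 1.20, SE 0.25, edgeR adjusted p = 0.103; DESeq2 adjusted p = 0.00184). Scarb1, a lipoprotein receptor that also binds phosphatidylserine, averaged 186 CPM in AL/NP livers and 126 CPM in fibrotic control livers (log2 fold change 0.56, SE 0.16, edgeR adjusted p = 0.144).

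The machinery of engulfment and the signals around it stayed nearer to the median of all genes than the members (median 0.96). The phosphatidylserine list, with a median of 0.17, lay close to them. Of 14 engulfment genes 1 was higher at an unadjusted p under 0.05, with a median log2 fold change of 0.15. That gene was Rab7, a late endosomal GTPase (log2 fold change 0.43, SE 0.15, edgeR adjusted p = 0.197), followed by Abca7 (0.28, SE 0.13, edgeR adjusted p = 0.281). Of 12 find-me and do-not-eat-me signals, 1 was higher at an unadjusted p under 0.05, also with a median of 0.15. Gpr132, a receptor of phagocytes, had a log2 fold change of 0.78 (SE 0.34, edgeR adjusted p = 0.248) and P2ry6, a nucleotide receptor of phagocytes, 0.75 (SE 0.35, edgeR adjusted p = 0.277). EdgeR called 0 genes in each of these lists.

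**Figure D5:**
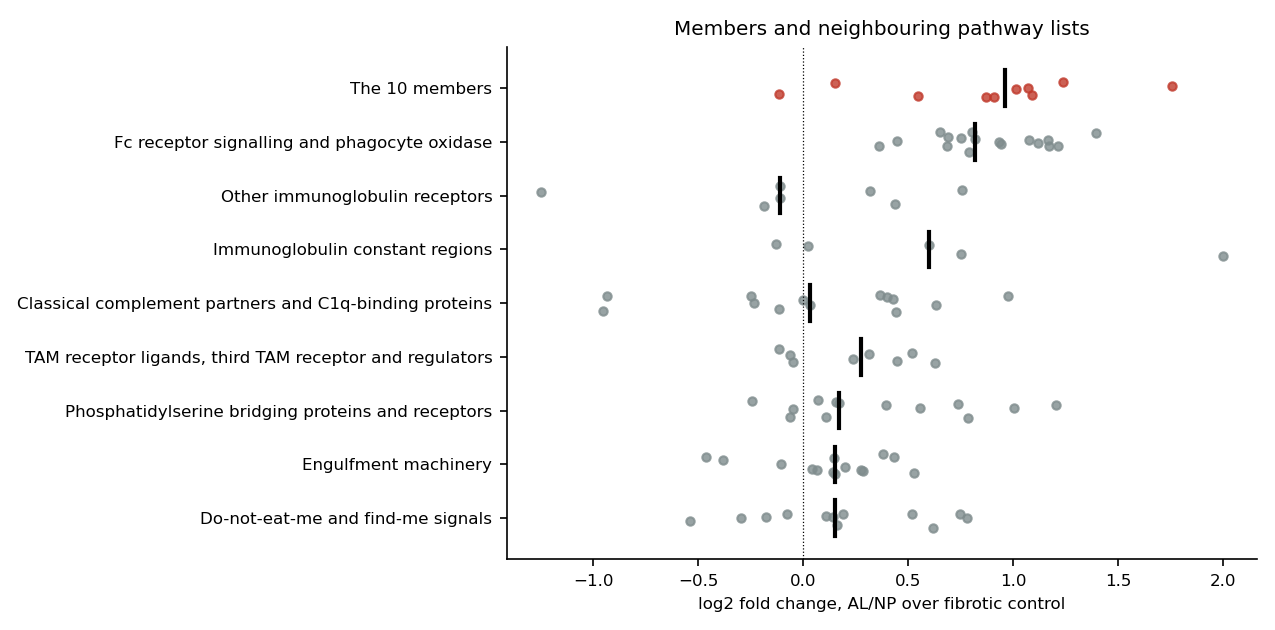
Log2 fold change, AL/NP over fibrotic control, of the 10 members (red) and of the tested genes of 8 related lists (grey), 1 dot per gene with vertical jitter, and the median of each list as a black line. The median is 0.96 for the members and 0.82 for Fc receptor signalling and oxidase genes, against 0.15 for the engulfment machinery.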

How the data were processed

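Whole-number read counts per Ensembl gene, 1 column per library, were deposited by the authors without normalization, judged from the values. GRCm38, STAR 2.6.1a, featureCounts and DESeq2 1.26.0 are named in the submitters' processing notes. Strand setting, annotation release and treatment of multiply matching reads are not given in the sources used here. Symbols were matched for 40254 of 41388 identifiers, and coordinates and exon lengths (union of exons) came from GENCODE M21. Groups were compared with edgeR 4.0.16 in R 4.3.3 (quasi-likelihood test, robust, TMM, filterByExpr with a minimum count of 10), adjusted by Benjamini-Hochberg over 15939 genes at 0.05. Standard errors were derived from the log2 fold change and its F statistic. Alternatives were DESeq2 1.42.0, limma-voom (limma 3.58.1), other scalings and filters, a replicate block and each library left out. A level of 3 counts was 0.0826 to 0.104 CPM, for counting error only.

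The members, the gene lists and the tests were chosen with earlier results of these data known. All members are named. Of each pathway list the 2 genes with the smallest p were named, except 1 that is not reported here, and of each marker list its counts and sums, with further genes of interest named after their values were seen (Adgre1 and Spi1 among markers). The 5 genes most like C1q were those with the highest Pearson r among genes of at least 1 CPM. No pair of libraries was closer than a chi-square of 30.6 per degree of freedom, so none was taken as a duplicate. On simulated data from the means, gene-wise dispersions and library sizes of AL/NP against control (15763 genes), edgeR recovered 39.8% of genes changed 2-fold and 90% of those changed 4-fold, with 10 false calls among 139. The simulated counts were drawn independently for each gene, with no shift of many genes together within a library. These percentages therefore need not hold for the real libraries.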

Additional observations from a re-analysis of the deposited data

How the results depend on the processing

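The direction of 9 members was positive under all 16 alternatives, and Fcgr2b turned positive under 2, at 0.026 with library totals only (all-gene median 0.133) and at 0.061 without control replicate 2; leaving out 1 library gave -0.23 to 0.061. EdgeR called 0 members with all libraries (6 at an unadjusted p under 0.05). DESeq2 and edgeR without a filter beyond 1 count each called 2, Fcgr3 (adjusted p 0.0143 and 0.0137) and Fcgr4 (0.00014 and 0.000108); no other alternative called any. Over the alternatives the adjusted p was 0.000108 to 0.262 for Fcgr4 and 0.0137 to 0.269 for Fcgr3.

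Over all genes, edgeR called 10 higher and 3 lower. These counts were 431 and 413 with DESeq2 and 374 and 373 without a filter. Both were 0 with at least 50 counts in 3 libraries, with library totals only and without robust estimation, where 2786, 2254 and 3133 genes had an unadjusted p under 0.05. Limma-voom called 1 lower. Leaving out 1 library gave 0 to 3 higher and 0 to 2 lower, from fewer samples. The replicate block called 14 higher and 9 lower and 0 members. Replicate numbers share only a number: same-numbered libraries correlated at -0.055, 0.043 and 0.075 in their deviations from the group means, and not every library correlated best with its own number. Depth limits the lists: 5 of 7 NK cell markers, 3 of 10 neutrophil markers (Camp, Ngp and Ltf) and Ighg2b, Ighg2c and Ighg3 were among the genes below the edgeR filter. DESeq2 did call Ngp (log2 fold change 2.98, DESeq2 adjusted p = 0.0080) and Ltf (2.69, 0.0369) higher. It did not call Camp (1.97, 0.157). The cause of these differences was not tested.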

Other observations

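A few genes next to the uptake pathways stood out after their values were seen. C1s1, a protease partner of C1q made mainly by hepatocytes and fibroblasts, measured 147, 184 and 114 CPM in AL/NP replicates 1 to 3, against 225, 244 and 382 CPM in control replicates 1 to 3 (log2 fold change -0.94, SE 0.25; edgeR adjusted p = 0.144; DESeq2 adjusted p = 0.0179). Scarf1, an endothelial scavenger receptor that binds C1q on apoptotic cells, measured 18.8, 19.6 and 18.4 CPM in AL/NP livers and 24.6, 30.5 and 54.7 CPM in fibrotic control livers (log2 fold change -0.95, SE 0.27; edgeR adjusted p = 0.147; DESeq2 adjusted p = 0.0313). Both genes were lower in every AL/NP library, while the C1q chains had positive fold changes.

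Ncf1, a cytosolic subunit of the phagocyte oxidase, measured 5.49, 7.54 and 11.6 CPM in AL/NP livers and 3.22, 2.18 and 4.01 CPM in fibrotic control livers (log2 fold change 1.39, SE 0.33; edgeR adjusted p = 0.124; DESeq2 adjusted p = 0.0027). F13a1, a marker of monocytes and some resident macrophages, averaged 2.72 CPM in AL/NP livers and 0.672 CPM in fibrotic control livers (log2 fold change 2.01, SE 0.31; edgeR adjusted p = 0.0749). Its groups did not overlap.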
